A study of Arabidopsis thaliana with 12 samples.

Results

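Serine acetyltransferases and the cysteine synthase family carry out the last steps of cysteine synthesis in plants, and their transcripts were examined in Arabidopsis thaliana across 2 organs and 2 genotypes. The 10 genes were found by their locus identifiers among the 27416 coding-sequence targets quantified in every library. They are 5 serine acetyltransferases (SERAT1;1, SERAT2;1, SERAT2;2, SERAT3;1 and SERAT3;2), the O-acetylserine(thiol)lyases OASA1, OASB and OASC, the β-cyanoalanine synthase CYSC1 and the cysteine desulfhydrase DES1. Wild-type (WT) plants and plants labelled as psp1 mutants, both of ecotype Columbia, were sampled as aerial part and as roots. Each of the 4 groups held 3 independent biological replicates, and no treatment that differed between samples was named. Stratification was at 4 °C for all samples. The plants grew on vertical agar plates under 16 h of light and 8 h of dark and were collected as the night ended. Plant age, the psp1 allele and the number of plants in a sample are not given in the labels. Titles of the psp1 libraries start with HS and those of the WT libraries with WT. The labels do not explain HS, which coincides with genotype in every comparison of psp1 with WT.

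Serine acetyltransferase transfers an acetyl group from acetyl coenzyme A to serine, giving O-acetylserine, and O-acetylserine(thiol)lyase exchanges the acetate for sulfide to give cysteine. Both activities exist in the cytosol, the plastids and the mitochondria, and they associate in the cysteine synthase complex, in which the acetyltransferase is active. Serine itself is made by several routes, one of which is the phosphorylated pathway in plastids, whose last enzyme is the phosphoserine phosphatase PSP1.

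The psp1-labelled libraries were shallower than the WT libraries in both organs. Estimated counts summed to between 7302386 and 8958217 in WT aerial libraries and between 3627193 and 5815906 in psp1-labelled aerial libraries. In roots, they summed to between 7445059 and 9590308 in WT and between 4191768 and 5873935 in psp1. PSP1, the gene named in the mutant label, went against a simple loss of transcript: its level was 60.5 to 87.4 TPM (transcript abundance corrected for length and scaled to a fixed sum per library) in WT aerial libraries and 283 to 478 TPM in psp1-labelled ones (log2 fold change 2.29 ± 0.26 SE, n = 3 per group, adjusted p = 1.6e-22, edgeR exact test). In roots PSP1 stood at 168 to 198 TPM in WT and 144 to 182 TPM in psp1 (log2 fold change −0.40 ± 0.13 SE, adjusted p = 0.0275, edgeR exact test). The mutant libraries are therefore called psp1-labelled in the text. Organ identity matched the labels: 6 leaf markers summed to 27473 to 36758 TPM in aerial libraries and to 355 to 578 TPM in roots. The 6 root markers summed to 178 to 215 TPM and 2055 to 3460 TPM respectively, most of it PYK10. In WT, 4 of the 5 root markers tested were higher in roots at an adjusted p under 0.01 (edgeR exact test). SCR was not, with a log2 fold change of −0.12 ± 0.18 (SE, adjusted p = 0.533).

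The genes differed widely in level. TPM is scaled by coding length, so it allows genes to be compared within a library. CYSC1, which detoxifies cyanide in mitochondria with cysteine as its other substrate, stood highest of the 10 in every group, at 1044 ± 105 TPM (SD, n = 3) in WT aerial libraries and 449 ± 8.67 TPM in WT roots. In WT aerial libraries the plastid enzyme OASB followed at 338 ± 29.1 TPM and the cytosolic OASA1 at 172 ± 7.45 TPM. In WT roots OASA1 stood at 319 ± 7.89 TPM, above OASB at 114 ± 3.43 TPM. The mitochondrial OASC was the lowest of these lyases, at 23.4 ± 3.64 TPM in WT aerial libraries and 66.0 ± 6.59 TPM in WT roots.

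Among the acetyltransferases, SERAT2;2 led in all 4 groups by mean. In WT aerial libraries it stood at 59.8 ± 0.937 TPM, above SERAT2;1 at 32.9 ± 6.14 TPM and SERAT1;1 at 27.8 ± 4.57 TPM, whose ranges overlapped. In WT roots the order was SERAT2;2 at 92.1 ± 15.4 TPM, SERAT1;1 at 74.2 ± 4.16 TPM, SERAT2;1 at 67.3 ± 7.70 TPM and then OASC, and the ranges of neighbours in this order overlapped. SERAT3;1 followed at 8.65 ± 0.0507 TPM in WT aerial libraries and 17.1 ± 2.69 TPM in WT roots. SERAT3;2 and DES1 were the lowest, at 1.33 ± 1.08 and 1.05 ± 0.585 TPM in WT aerial libraries.

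**Figure D1:**
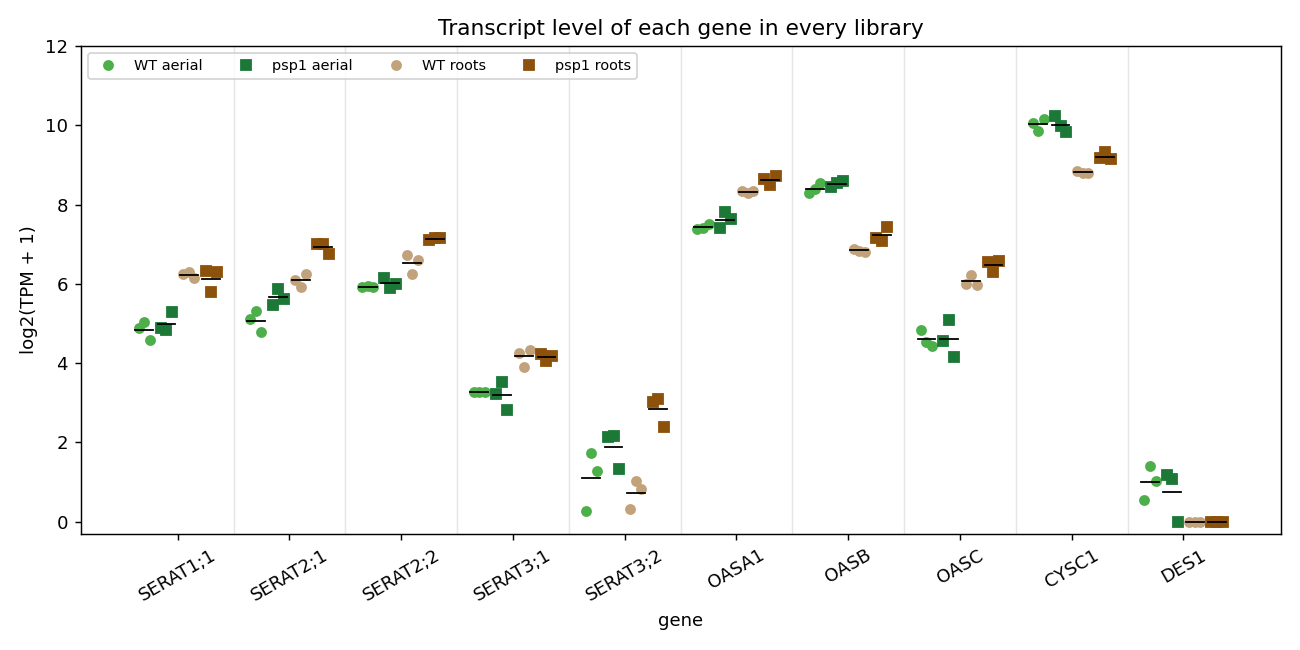
Level of each of the 10 genes on a log2(TPM + 1) scale, with 1 point per library and a bar at the mean of the 3 libraries in a group. OASB and CYSC1 sit lower in roots than in the aerial part, SERAT3;2 stands highest in psp1-labelled roots, and DES1 is at 0 in all 6 root libraries.

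The 5 acetyltransferases differ at the very end of the coding sequence, which is shown because it bears on complex formation. The C-terminal isoleucine of a serine acetyltransferase docks into the active site of O-acetylserine(thiol)lyase when the cysteine synthase complex forms. The last 30 coding bases before the stop codon, read from the TAIR10.1 genome in the sense direction, are given here with the last sense codon in capitals. ATA and ATT are isoleucine codons, and TCA and CAT are not.
SERAT1;1: ttcatctcggaatggtcagattacatcATA
SERAT2;1: tatttaaccgagtggtctgattatgtgATT
SERAT2;2: catatatccgagtggtcggattatgtaATT
SERAT3;1: acagagaaaggacacactaacagcacaTCA
SERAT3;2: gtttcagggagttgcagggaaaggagaCAT
Over the whole coding sequence SERAT3;1 and SERAT3;2 were 81.9% identical and SERAT2;1 and SERAT2;2 were 76.6% identical. No 31-base word of any acetyltransferase occurred in the coding sequence of another gene.

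Roots of psp1-labelled plants differed from WT roots in 2 of the 9 members tested, and both rose: the plastid acetyltransferase SERAT2;1 and the cytosolic acetyltransferase SERAT3;2. A gene was called at an adjusted p under 0.01, the level named in the study's protocol. Over all 17793 genes tested in roots, 17.8% were called, 8.72% higher and 9.1% lower, so 2 of 9 is close to the share of all genes. SERAT3;2 entered the test through the psp1-labelled libraries, in which it was high, so this is not a like comparison. The median log2 fold change of the 9 members was 0.19, beside 0.01 over all genes tested. DES1 had no counts in any root library and was not tested.

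SERAT2;1 (AT1G55920, chromosome 1, 20912116 to 20913565, plus strand, 1 exon, TAIR10.1) stood at 67.0, 59.7 and 75.1 TPM in WT roots and at 127, 128 and 107 TPM in psp1-labelled roots. All 3 psp1-labelled libraries lay above all 3 WT libraries. The log2 fold change was 0.63 ± 0.13 (SE, n = 3 per group, adjusted p = 0.000364, edgeR exact test), a 1.55-fold difference. The call was lost without WT replicate 2 (0.53, adjusted p = 0.0127) and without psp1 replicate 1 (0.57, adjusted p = 0.0104). With all libraries thinned to equal depth it was 0.55 (adjusted p = 0.00284).

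SERAT3;2 (AT4G35640, chromosome 4, 16905579 to 16908357, minus strand, 10 exons) had 2, 10 and 8 estimated counts in WT roots and 42, 36 and 18 in psp1-labelled roots. In TPM these were 0.253, 1.04 and 0.788 against 7.18, 7.53 and 4.26. Every psp1-labelled library was above every WT library, although the gene remained among the 2 lowest of the 10. The gene passed the filter on low counts through the psp1-labelled libraries. The log2 fold change was 2.93 ± 0.46 (SE, n = 3 per group, adjusted p = 2.64e-07, edgeR exact test), a 7.60-fold difference. SERAT3;2 was called under each of the 15 alternatives run, with log2 fold changes between 2.11 and 3.28 and a highest adjusted p of 0.00412. The alternatives refit the same libraries and are not independent support.

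The 3' end of the SERAT3;2 gene overlaps the opposite-strand gene PSAT1, which encodes a phosphoserine aminotransferase of the phosphorylated serine pathway, by 144 bases, of which 0 are coding. PSAT1 rose in psp1-labelled roots too, with a log2 fold change of 0.83 ± 0.09 (SE, adjusted p = 3.38e-08, edgeR exact test). Counting was against coding sequences, so the overlap itself lay outside the targets. In the 250 bases upstream of each gene's start, the sulfur response core GAGAC, searched on both strands, was found for 3 of the 10 members (SERAT3;1, OASB and CYSC1), beside 25.8% of 27443 protein-coding genes.

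SERAT2;2 (AT3G13110, chromosome 3, 4214399 to 4216302, minus strand), the mitochondrial acetyltransferase, stood at 105, 75.3 and 95.5 TPM in WT roots and at 137, 142 and 141 TPM in psp1-labelled roots. The groups did not overlap, yet the difference missed the threshold (log2 fold change 0.40 ± 0.15 SE, adjusted p = 0.0407, edgeR exact test). Scaled by library totals instead of TMM it was called (0.51, adjusted p = 0.00460), with all genes shifted by 0.11 in the same direction.

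The cytosolic SERAT1;1 (AT5G56760, chromosome 5, 22961229 to 22962713, minus strand) stood at 75.2, 77.7 and 69.6 TPM in WT roots and at 79.1, 54.3 and 77.3 TPM in psp1-labelled roots. These ranges overlapped in TPM, whereas after TMM scaling each psp1-labelled library lay below each WT library. The log2 fold change was −0.28 ± 0.21 (SE, adjusted p = 0.265, edgeR exact test) and was not called. SERAT3;1 (AT2G17640, chromosome 2, 7668078 to 7670495, minus strand) had overlapping groups and a log2 fold change of −0.24 ± 0.17 (SE, adjusted p = 0.511).

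The lyases gave no call in psp1-labelled roots. CYSC1 (AT3G61440, chromosome 3, 22735663 to 22738131, plus strand) stood at 459, 442 and 445 TPM in WT and at 572, 640 and 563 TPM in psp1-labelled roots. Its groups did not overlap, with a log2 fold change of 0.19 ± 0.04 (SE, adjusted p = 0.279, edgeR exact test). The log2 fold changes of OASA1, OASB and OASC were 0.09 ± 0.10, 0.19 ± 0.13 and 0.22 ± 0.14 (SE, n = 3 per group), and none was called. Whether these groups overlapped depended on the scale: after TMM scaling they did, and in TPM every psp1-labelled root library lay above WT for all 3. After TMM scaling, 4 of the 9 members had every psp1-labelled library above WT and 1 had every one below, beside 19.5% and 20.4% of all genes tested. In TPM 7 of 9 lay above and 0 below, beside 31.6% and 11.1% of all genes tested.

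The share of each isoform in the summed acetyltransferase TPM was set side by side as a description. SERAT2;1 made up 26.8% ± 1.91 (SD, n = 3) of the sum in WT roots and 34.0% ± 3.01 in psp1-labelled roots. SERAT1;1 made up 29.7% ± 3.88 and 19.8% ± 3.67. The sum itself was 251 ± 20.6 TPM in WT roots and 354 ± 12.1 TPM in psp1-labelled roots, and the 2 ranges did not overlap. On log2(TPM + 1) the median of all genes tested was itself 0.19 higher in psp1-labelled roots. The 6 root markers did not move one way in psp1-labelled roots. Their summed level was 2055 to 2856 TPM beside 2954 to 3460 TPM in WT, and most of it was PYK10, at 3103 ± 262 TPM (SD, n = 3) in WT. PYK10 and TIP2;3 fell, with log2 fold changes of −0.63 ± 0.14 and −1.07 ± 0.15 (SE, adjusted p = 0.000316 and 2.40e-08, edgeR exact test). EXP7 at 1.29 ± 0.25, COBL9 at 0.47 ± 0.35, CASP1 at 0.00 ± 0.12 and SCR at −0.04 ± 0.21 were not called, and every psp1-labelled root library was above WT for EXP7. Leaf markers summed to 355 to 487 TPM in psp1-labelled roots and to 542 to 578 TPM in WT roots. Fewer cells of a type and less RNA per cell cannot be told apart in whole organs, and the part of these markers in the results was not tested.

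**Figure D2:**
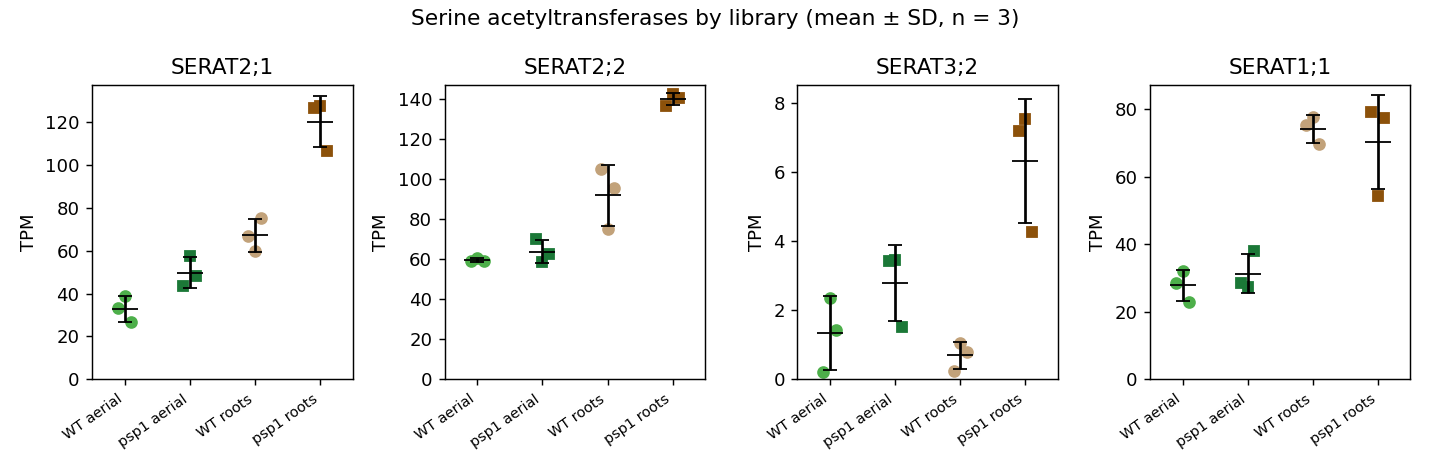
TPM of 4 acetyltransferases in each of the 12 libraries, with the mean and SD of each group (n = 3). SERAT2;1, SERAT2;2 and SERAT3;2 lie higher in all 3 psp1-labelled root libraries than in WT roots, and SERAT1;1 overlaps between the genotypes in roots.

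In the aerial part none of the 9 members tested was called between psp1-labelled and WT plants. Over all 15928 genes tested, 2.43% were called, 1.53% higher and 0.904% lower. The count of members was 0 by the edgeR exact test, by the quasi-likelihood test, by DESeq2 and by limma on log2(TPM + 1). Over all genes the last 3 called 28 higher and 3 lower, 222 and 116, and 6 and 0. With so few calls, 0 of 9 does not show that the members were unchanged. By the exact test 1 member had an unadjusted p under 0.05. The median log2 fold change was 0.10 for the members and 0.01 for all genes tested.

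That member was SERAT2;1, at 33.3, 38.8 and 26.6 TPM in WT and at 43.5, 57.6 and 48.2 TPM in psp1-labelled aerial libraries. The groups did not overlap, and 11% of all genes tested were likewise higher in every psp1-labelled library. The log2 fold change was 0.57 ± 0.22 (SE, n = 3 per group, adjusted p = 0.107, edgeR exact test). SERAT3;2, with 2, 21 and 11 counts in WT and 21, 14 and 6 in psp1, had the widest error, at 1.05 ± 0.79 (SE, adjusted p = 0.498). SERAT1;1, SERAT2;2, SERAT3;1, OASA1, OASB, OASC and CYSC1 lay between −0.08 and 0.17 with overlapping groups. DES1 had 4, 13 and 7 counts in WT and 7, 4 and 0 in psp1-labelled aerial libraries and was below the filter on low counts. Leaf markers summed to 27473 to 30927 TPM in psp1-labelled aerial libraries and to 32875 to 36758 TPM in WT ones, and their part in these values was not tested.

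Whether the genotype difference itself varied with organ was tested with the genotype by organ term over all 12 libraries. No member of the 9 tested was called by the edgeR quasi-likelihood test, by DESeq2 or by limma. Over all 18759 genes the first called 1.68%, 0.816% higher and 0.864% lower. DESeq2 called 331 higher and 497 lower, and limma 315 and 88, so 0 of 9 is close to these shares. By quasi-likelihood 2 members had an unadjusted p under 0.05. These were SERAT2;2, with a larger psp1-labelled minus WT difference in roots by 0.42 ± 0.17 (log2, SE, adjusted p = 0.231), and SERAT3;2, by 1.94 ± 0.95 (adjusted p = 0.236). For SERAT2;1 the term was 0.16 ± 0.25 (adjusted p = 0.776), so its call in roots alone does not show a difference between the organs. The term was −0.32 ± 0.29 for SERAT1;1, −0.06 ± 0.29 for SERAT3;1, 0.02 ± 0.16 for OASA1, 0.18 ± 0.15 for OASB, 0.31 ± 0.35 for OASC and 0.32 ± 0.15 for CYSC1 (log2, SE), and DES1 was not tested.

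**Figure D3:**
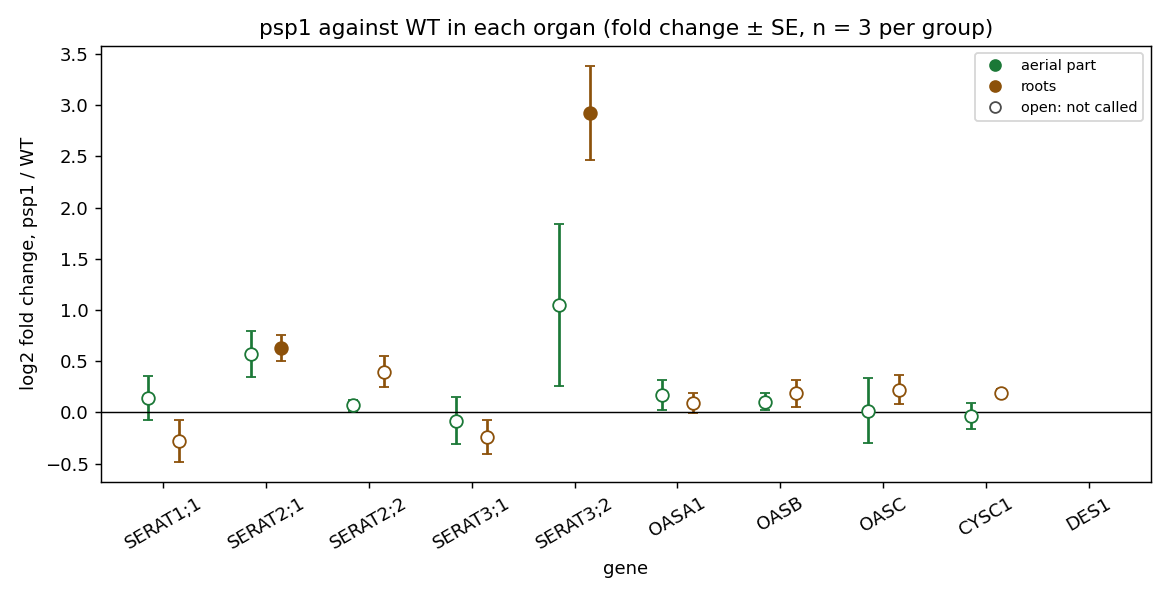
Log2 fold change of psp1-labelled over WT libraries in each organ, with SE from 3 libraries per group. Filled points mark genes called at an adjusted p under 0.01, which are SERAT2;1 and SERAT3;2 in roots, and DES1 has no point because it was not tested.

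Between organs, members differed in both directions, in shares not far from those of all genes. In WT, 6 of the 8 members tested were called between roots and aerial part: SERAT1;1, SERAT2;1, OASA1 and OASC were higher in roots, and OASB and CYSC1 were lower. Over all 18202 genes tested, 64.4% were called, 33.6% higher and 30.8% lower. In psp1-labelled plants 4 of 9 were called, SERAT2;1 and OASC higher and OASB and CYSC1 lower, beside 49.7% of 17344 genes (25.2% higher and 24.5% lower). After TMM scaling every root library lay above every aerial library for 5 of 8 members in WT and below for 2, beside 38.1% and 36% of all genes tested. In psp1-labelled plants this held for 3 and 2 of 9 members, beside 32.8% and 30.5%.

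OASB (AT2G43750, chromosome 2, 18129435 to 18132638, minus strand) stood at 311, 333 and 369 TPM in WT aerial libraries and at 118, 112 and 111 TPM in WT roots. Its groups were far apart, with a log2 fold change of −2.08 ± 0.06 (SE, n = 3 per group, adjusted p = 1.66e-65, edgeR exact test), 4.24-fold lower in roots. In psp1-labelled plants it stood at 350, 371 and 383 TPM against 141, 134 and 172 TPM, a log2 fold change of −1.98 ± 0.14 (SE, adjusted p = 2.53e-27). OASB was called in both genotypes under every alternative run.

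CYSC1 was 3.32-fold lower in roots of WT plants and 2.80-fold lower in roots of psp1-labelled plants. The log2 fold changes were −1.73 ± 0.08 and −1.48 ± 0.11 (SE, adjusted p = 1.09e-42 and 8.17e-18, edgeR exact test). Of the summed TPM of the 5 lyase-like members, CYSC1 made up 66.1% ± 1.99 (SD, n = 3) in WT aerial libraries and 47.3% ± 0.212 in WT roots.

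OASC (AT3G59760, chromosome 3, 22071948 to 22075453, minus strand) went the other way. It stood at 27.6, 22.0 and 20.7 TPM in WT aerial libraries and at 62.8, 73.6 and 61.7 TPM in WT roots, with a log2 fold change of 0.97 ± 0.15 (SE, adjusted p = 1.26e-10, edgeR exact test). In psp1-labelled plants it stood at 22.4, 33.2 and 16.8 TPM against 93.4, 77.8 and 94.8 TPM, with a log2 fold change of 1.20 ± 0.31 (SE, adjusted p = 8.69e-06). No library of one organ overlapped the other in either genotype.

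Of OASA1, OASB and OASC, the last 2 are the closest in sequence, with 85.2% identity over 1152 aligned coding bases and 23 shared 31-base words. Estimated counts were whole numbers for all 10 members in all 12 libraries, and the 2 genes changed in opposite directions between organs.

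OASA1 (AT4G14880, chromosome 4, 8517960 to 8520596, minus strand) stood at 167, 168 and 181 TPM in WT aerial libraries and at 326, 311 and 321 TPM in WT roots. After TMM scaling the log2 fold change was 0.38 ± 0.04 (SE, adjusted p = 0.00112, edgeR exact test), and the call was lost without WT aerial replicate 1 (0.34, adjusted p = 0.0194) or 2 (0.34, adjusted p = 0.0210). In psp1-labelled plants it was 0.32 ± 0.17 (SE, adjusted p = 0.119). The 3 O-acetylserine(thiol)lyases thus had a different make-up in each organ. OASB was 63.3% ± 1.63 (SD, n = 3) of their summed TPM in WT aerial libraries and 22.8% ± 0.376 in WT roots, while OASA1 was 32.3% ± 0.701 and 64.0% ± 1.26. In psp1-labelled plants OASB was 62.7% ± 3.00 and 23.7% ± 1.42.

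**Figure D4:**
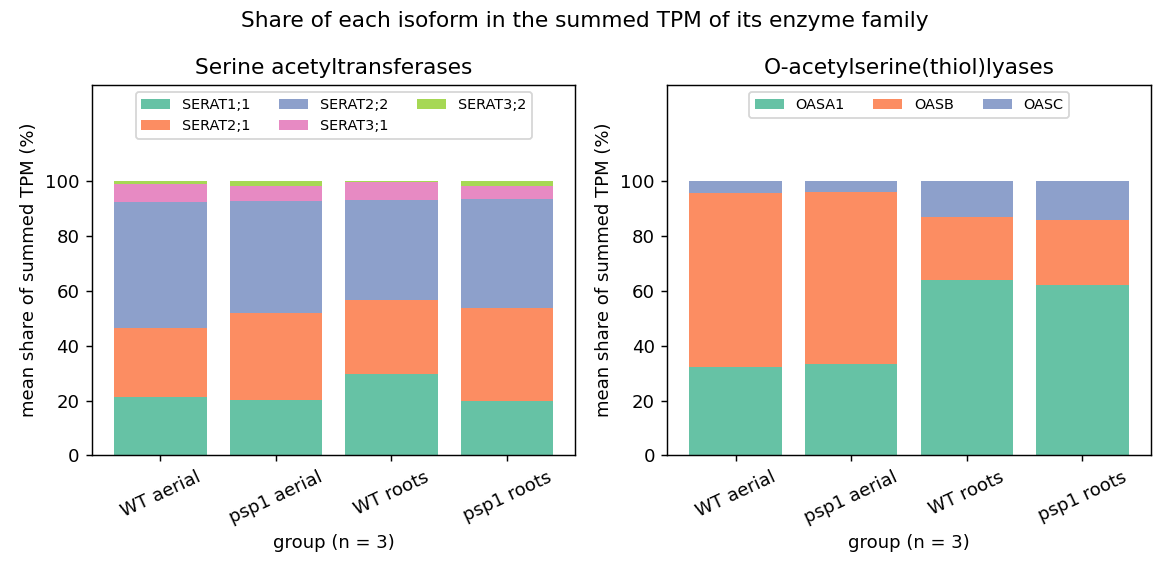
Mean share of each isoform in the summed TPM of the 5 serine acetyltransferases and of the 3 O-acetylserine(thiol)lyases, by group (n = 3). OASB makes up 63.3% of the lyase sum in WT aerial libraries and 22.8% in WT roots, beside 62.7% and 23.7% in psp1-labelled libraries.

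Of the acetyltransferases, SERAT1;1 rose most between organs in WT, with 28.4, 32.0 and 22.9 TPM in aerial libraries against the root values above. Its log2 fold change was 0.90 ± 0.16 (SE, adjusted p = 9.35e-09, edgeR exact test). In psp1-labelled plants the difference was 0.50 ± 0.25 (SE, adjusted p = 0.0769) and was not called. SERAT2;1 was higher in roots of both genotypes, by 0.51 ± 0.20 in WT (SE, adjusted p = 0.00379) and 0.60 ± 0.16 in psp1-labelled plants (SE, adjusted p = 0.00622). These calls were not stable: in WT the call was lost without aerial replicate 1 (adjusted p = 0.0191) or 3 (0.0584) or root replicate 1 (0.0120) or 3 (0.0348). In psp1-labelled plants it was lost without aerial replicate 1 (adjusted p = 0.0174) or 3 (0.0116) or root replicate 1 (0.0548) or 2 (0.0327), and in the quasi-likelihood test (0.0121).

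SERAT2;2 differed between organs by 0.11 ± 0.15 (SE, adjusted p = 0.507, edgeR exact test) in WT and by 0.46 ± 0.05 (SE, adjusted p = 0.0103) in psp1-labelled plants. The latter was called without psp1 aerial replicate 1 (0.56, adjusted p = 0.00276). SERAT3;1 differed by 0.47 ± 0.15 (SE, adjusted p = 0.0249) in WT, called without WT root replicate 2 (0.61, adjusted p = 0.00408), and by 0.34 ± 0.24 (SE, adjusted p = 0.419) in psp1-labelled plants. SERAT3;2 fell below the filter in WT and differed by 0.49 ± 0.41 (SE, adjusted p = 0.420) in psp1-labelled plants.

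**Figure D5:**
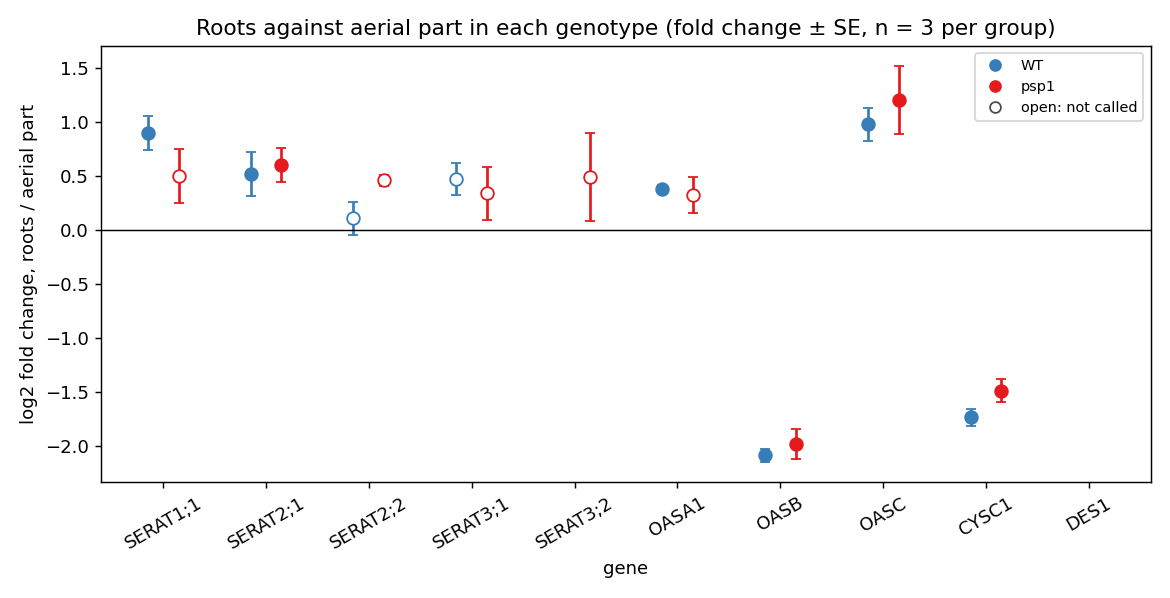
Log2 fold change of roots over aerial part in WT and in psp1-labelled libraries, with SE from 3 libraries per group and filled points for genes called at an adjusted p under 0.01. OASB and CYSC1 lie below 0 in both genotypes and OASC above it, and genes without a point were not tested.

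DES1 (AT5G28030, chromosome 5, 10029632 to 10032962, minus strand), a cytosolic enzyme that breaks cysteine down to sulfide, had counts in aerial libraries alone. The 3 WT aerial libraries held 24 counts together and the 3 WT root libraries 0. Against a floor of 3 counts over the group, DES1 was 8.51-fold lower in WT roots. With 11 counts in psp1-labelled aerial libraries it was 4.16-fold lower in psp1-labelled roots, and the lowest of those aerial libraries held 0 too. The aerial counts were taken as exact, so these folds are not strict lower limits. Without the filter on low counts the WT difference had an adjusted p of 6.04e-06 and the psp1-labelled one of 0.0335 (edgeR exact test). DES1 lies 909 bases from its close relative CYSD2, with which it shares 86.6% of coding bases and 5 words of 31 bases.

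The scaling of the libraries mattered most for the organ contrast. Scaled by library totals instead of TMM, the median of all genes moved up by 0.51 in WT and 0.56 in psp1-labelled plants (log2, roots over aerial part), and all 8 members tested were called in WT and 7 of 9 in psp1. Calls over all genes then numbered 9109 higher and 3663 lower in WT, beside 6114 and 5615 with TMM, and 7137 and 2849 in psp1, beside 4363 and 4252. For psp1-labelled against WT roots the split was 2142 higher and 1182 lower, beside 1552 and 1620. Relative to that shift OASB and CYSC1 remained lower in roots and OASC higher, and none of these 3 changed sign under any scaling run. The TPM values given above carry a shift of their own size. By limma on log2(TPM + 1) the median of all genes was 0.48 between organs in WT and 0.68 in psp1-labelled plants. For psp1-labelled against WT it was 0.19 in roots and 0.002 in the aerial part.

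Other genes of the pathway put the family in context, and the lists were chosen with earlier results of these data known. Of 8 genes of sulfate activation and reduction, 3 rose and 0 fell in psp1-labelled aerial libraries, and 3 rose and 1 fell in roots. Over all genes tested, 1.53% were called higher and 0.904% lower in the aerial part. In roots these shares were 8.72% and 9.1%, so 1 of 8 lower is near the share of all genes. The adenosine phosphosulfate reductase APR1 rose by 2.25 ± 0.25 in the aerial part and by 2.33 ± 0.12 in roots (log2, SE, adjusted p = 1.52e-18 and 2.34e-52, edgeR exact test). Among 6 genes known to respond to O-acetylserine, the product of the acetyltransferases, 3 of 4 tested rose in the aerial part and 6 of 6 in roots, beside 1.53% and 8.72% of all genes tested. In roots SDI1, LSU1 and GGCT2;1 had 12, 14 and 9 counts over the 3 WT libraries, so these 3 entered the test through the psp1-labelled libraries, in which they were high. In the aerial part SDI1 and LSU2, with 19 and 11 counts over the 3 WT libraries, entered in the same way. LSU1 and GGCT2;1 fell below the filter there. The counts called are therefore not a like comparison with the shares of all genes. SDI1, a repressor of glucosinolate synthesis under sulfur deficiency, went from 0.249 to 0.761 TPM in WT roots to 48.8 to 72.4 TPM in psp1-labelled roots (log2 fold change 6.60 ± 0.33 SE, adjusted p = 8.61e-75).

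Of 11 genes that use or break down cysteine, 0 of 11 were called in the aerial part by the edgeR exact test, with 3 at an unadjusted p under 0.05. In roots 1 rose, CGS1, which commits cysteine to methionine synthesis (0.46 ± 0.04, log2, SE, adjusted p = 0.00195, edgeR exact test). Over all genes tested in roots, 8.72% were called higher, so 1 of 11 is near that share. In the phosphorylated serine pathway the calls were PSP1 in the aerial part and PSAT1 in roots, of 6 and 5 genes tested. Over all genes tested, 2.43% and 17.8% were called in either direction in these organs. Beside the same shares, none of the 4 remaining cysteine synthase-like genes (CS26, OASA2, CYSD1 and CYSD2) was called between genotypes by the edgeR exact test. In each organ 1 of them had an unadjusted p under 0.05. That was CYSD2, at 0.55 ± 0.15 in the aerial part and 0.50 ± 0.08 in roots (log2, SE, adjusted p = 0.0553 and 0.0210), with every psp1-labelled library above WT in both organs. Between organs CS26, a plastid S-sulfocysteine synthase, was lower in WT roots, with a log2 fold change of −3.44 ± 0.31 (SE, adjusted p = 8.86e-44, edgeR exact test). CYSD2 was lower too, at −1.10 ± 0.03 (adjusted p = 6.48e-16), and OASA2 was higher, at 0.84 ± 0.14 (adjusted p = 0.000298).

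The gene whose profile over the 12 libraries was nearest to each member was found by the root mean square difference of centred, depth-scaled log2 counts. For OASB it was the aquaporin gene PIP1;5, at 0.14, and for CYSC1 it was HCF152, at 0.12, beside medians over 18758 genes of 1.20 and 1.03. OASB and CYSC1 were each other's nearest relative within the family, at 0.28. Among all genes, CYSC1 ranked only 161 in nearness to OASB, and OASB 221 in nearness to CYSC1. SERAT3;2 had SRG3 nearest at 0.65, beside a median of 1.41, and SERAT2;1 had ZAP1 at 0.19. For OASA1 the nearest gene was VPS41, at 0.0856. These differences are not scaled by the spread of each profile, whose SD was 1.19 for SERAT3;2 and 0.215 for OASA1.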

How the data were processed

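Polyadenylated RNA of 12 samples was sequenced as 75-nucleotide single-end SOLiD reads, per the labels' protocols. The authors quantified them with kallisto 0.43.0 against the TAIR10 transcriptome, with a fragment length of 200 and SD of 30 bases, and deposited estimated counts and TPM per target. TPM, as deposited by the authors, is scaled by effective length and to a fixed sum per library. Target lengths were multiples of 3 for 99.99% of targets, as for coding sequences, so reads lying wholly in UTRs had no target. Whether counting used strand is not given in the sources used here.

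Estimated counts were rounded and filtered with filterByExpr. The groups were compared in edgeR 4.0.16 (R 4.3.3) with TMM factors and the classic exact test, the mode named in the labels' protocols, with Benjamini-Hochberg adjustment over all genes tested and calls under 0.01. The genotype by organ term was tested by quasi-likelihood over all 12 libraries. SEs come from the 3 libraries per group on the log2 CPM scale with a prior count of 2. The tests were tested on simulated data: of 2-fold changes, 64% were recovered in the aerial part, 74% in roots and 19% for the genotype by organ term, among 15695, 17517 and 18320 genes. Of the calls made there, 7.34%, 2.79% and 1.83% were false, and for the organ contrasts 6.03% in WT and 6.55% in psp1, so the share of false calls can exceed 1%. The 2-fold changes were placed in 100 genes per comparison, and 4-fold changes in 100 more. Both sets were drawn only from genes above a minimum mean count, so the recovery does not hold for all genes simulated. The shares of false calls are taken over calls on both sizes of change. Recovery is not split by count level. Recovery for genes with counts as low as those of SERAT3;2 was not tested. The floors cover counting error only, whereas SEs and SDs come from the spread between libraries. Alternatives were the quasi-likelihood test, DESeq2 1.42.0, limma 3.58.1 on log2(TPM + 1), RLE factors, library totals, no filter, equal depth, a replicate block and each library left out. An estimate of dispersion without a trend was added after seeing the data.

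The 10 members were described in each comparison. For the other lists, up to 2 called genes of smallest p were allowed, together with the cysteine synthase-like relatives, listed neighbours and nearest profiles. Single root markers were named after their values were seen. The members and lists were chosen with earlier results of these data known. Gene positions and sequences come from TAIR10.1 of RefSeq, to which 97.46% of loci matched. Some sequences are not reported here.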

Additional observations from a re-analysis of the deposited data

Results flagged for a closer look

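For 3 pathway genes outside the family the psp1-labelled minus WT difference itself differed between roots and aerial part (genotype by organ term, edgeR quasi-likelihood test over 12 libraries). The term was 0.96 for APR2 (adjusted p = 0.00174), which rose in both organs, with log2 fold changes of 0.83 ± 0.08 in aerial libraries and 1.69 ± 0.07 in roots (SE, n = 3 per group). It was −1.18 for APR3 (adjusted p = 0.00571), which rose by 2.16 ± 0.09 in aerial libraries and 0.88 ± 0.24 in root libraries. It was −2.60 for PSP1 (adjusted p = 9.64e-06), which was higher in the aerial part and, without a call, lower in roots. No member of the 10-gene family passed this test.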

How the results depend on the processing

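Of the members' fold changes recomputed under the alternatives, 636 kept direction and side of the threshold, 17 gained a call, 14 lost one and 28 changed sign. The latter 28 belong to values without a call, and the cause was not tested.

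Genes called in the aerial part between genotypes numbered 387, beside 31 by quasi-likelihood, 6 by limma on log2(TPM + 1), and 112 to 710 with one library left out (fewest without WT replicate 1, most without psp1 replicate 1). In roots 3172 were called, beside 1537 by limma and 2161 to 3288 with one library left out, and members called numbered 1 to 2. Members called between organs of psp1-labelled plants numbered 4, beside 7 with library totals, 8 by limma and 3 to 4 with one library left out. In WT they numbered 5 to 7. The genotype by organ term called 315 genes, beside 828 by DESeq2 and 136 to 374 with one library left out. Its split was 153 higher and 162 lower, beside 143 and 234 with RLE factors and 315 and 88 by limma.

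The main tests were unpaired. The labels give only a replicate number and do not tell whether same-numbered samples shared a source. Deviations of same-numbered samples from their group means did not all correlate above 0.1, which cannot decide this. Between genotypes these correlations lay between −0.0489 and 0.0472. Between organs they were 0.0273, 0.111 and 0.15 in WT, each highest with its own number, and 0.0289, 0.0211 and 0.044 in psp1, 2 of 3 highest with their own, which is a hint from the data and not the design. With a replicate block, 21 genes were called between genotypes in aerial libraries, 1837 in root libraries, and the psp1 organ call of SERAT2;1 was lost (adjusted p = 0.0176).

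Sign changes between genotypes in aerial libraries were, for SERAT3;1, 0.0994 at equal depth, for OASC, −0.00184 by limma and −0.0234 with the replicate block, and for CYSC1, 0.00786 with library totals. With one library left out, SERAT1;1 ranged from −0.0342 to 0.256, SERAT3;1 from −0.293 to 0.0743, OASC from −0.305 to 0.205 and CYSC1 from −0.122 to 0.0457. SERAT2;2 ranged from −0.00491 to 0.244 between WT organs. For the genotype by organ term, OASA1 was −0.0550 by DESeq2, −0.0559 with RLE factors, −0.00650 with library totals and −0.0360 at equal depth, and SERAT3;1 was 0.0596 by limma. With one library left out, that term ranged from −0.158 to 0.132 for OASA1, −0.0625 to 0.226 for OASB, −0.0454 to 0.307 for SERAT2;1 and −0.308 to 0.135 for SERAT3;1.

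Depth limits SERAT3;2 and DES1, whose counts stayed at or below 42 per library.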
